A study of Mus musculus with 18 samples.

Results

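Egr1, Egr2, Egr3, Ier2, Ier3, Ier5, Klf2, Klf4, Klf6 and Myc are 10 genes of the early response, the set of genes that a cell switches on within minutes of a growth factor, a cytokine, mechanical stress or injury. They were taken by name from a table of 54752 genes counted in the livers of 18 mice, and all 10 were found and were among the 21840 genes that passed the filter on low counts. Male C57BL/6 mice, aged 6 weeks, were kept in groups of 15, and 6 of each group were sequenced in week 22. The CCl4_PTH group received carbon tetrachloride (CCl4) by intraperitoneal injection 2 times per week and PTH by gavage every day. The CCl4 group received the same injections and water by gavage. The control group received olive oil injections and water by gavage. The labels use PTH and PZH for Pien Tze Huang, a traditional Chinese preparation, and call the CCl4 treatment a liver cancer model. CCl4 is turned into a radical by cytochrome P450 enzymes of the hepatocyte, and repeated doses injure and scar the liver. The sources used here do not say whether the sampled pieces held tumour, how long after an injection they were taken, or at what time of day.

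Early response genes are transcribed without the need for new protein, because the factors that start them, such as serum response factor (SRF) with its ETS partners, already sit in the nucleus and are activated by phosphorylation. Their RNAs are mostly short-lived, so a level in tissue reflects both recent transcription and decay. EGR proteins are zinc finger transcription factors that bind GC-rich sites and are held in check by the corepressors NAB1 and NAB2. IER genes encode small regulators of signalling and stress, and KLF proteins are zinc finger factors of the CACCC-box type that guide endothelial, epithelial and stromal states. MYC, paired with MAX, drives genes of ribosome building and growth. In the liver this programme is known from regeneration after hepatectomy and from acute injury.

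The 10 genes share a compact structure. In the GENCODE M21 annotation of the mouse build GRCm38, their principal transcripts have 1 to 5 exons, with a median of 2, against a median of 7 in 21011 other protein-coding genes. All 10 transcripts span less than 10 kb, as do 36.2% of those other genes, and the median span is 4.64 kb, against 16.6 kb. None of the 10 overlaps an exon of another annotated gene on either strand, so the deposited counts of these genes do not share annotated exons with a neighbour.

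Each library was a separate mouse. Total counts ran from 76.9 M to 118.9 M in CCl4_PTH, from 67.2 M to 83.8 M in CCl4 and from 77.2 M to 86.6 M in control libraries. Ribosomal RNA took 30.6% to 55.8% of the counts and left 35.6 M to 79.7 M for other genes. CCl4_PTH libraries averaged 102.6 M ± 16.1 and CCl4 libraries 76.7 M ± 6.49 (SD, n = 6 each), a difference with an exact permutation p of 0.0108 and a Benjamini-Hochberg adjusted p of 0.0649 over 6 tests. One library, CCl4_PTH 1, stood apart from its group, and values that rest on it are given with and without it. In CCl4_PTH 1 the summed neutrophil markers were 219 CPM, against 14.4 to 31.9 CPM in the other 5 CCl4_PTH livers. Its summed cholangiocyte markers were 254 CPM, against 58.6 to 107 CPM. Levels are given as CPM, the counts scaled by edgeR with TMM factors to a common library size. A gene was called higher or lower when the adjusted p of edgeR's quasi-likelihood test over the 21840 genes was under 0.05, and log2 fold changes carry their standard error (SE).

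**Figure D1:**
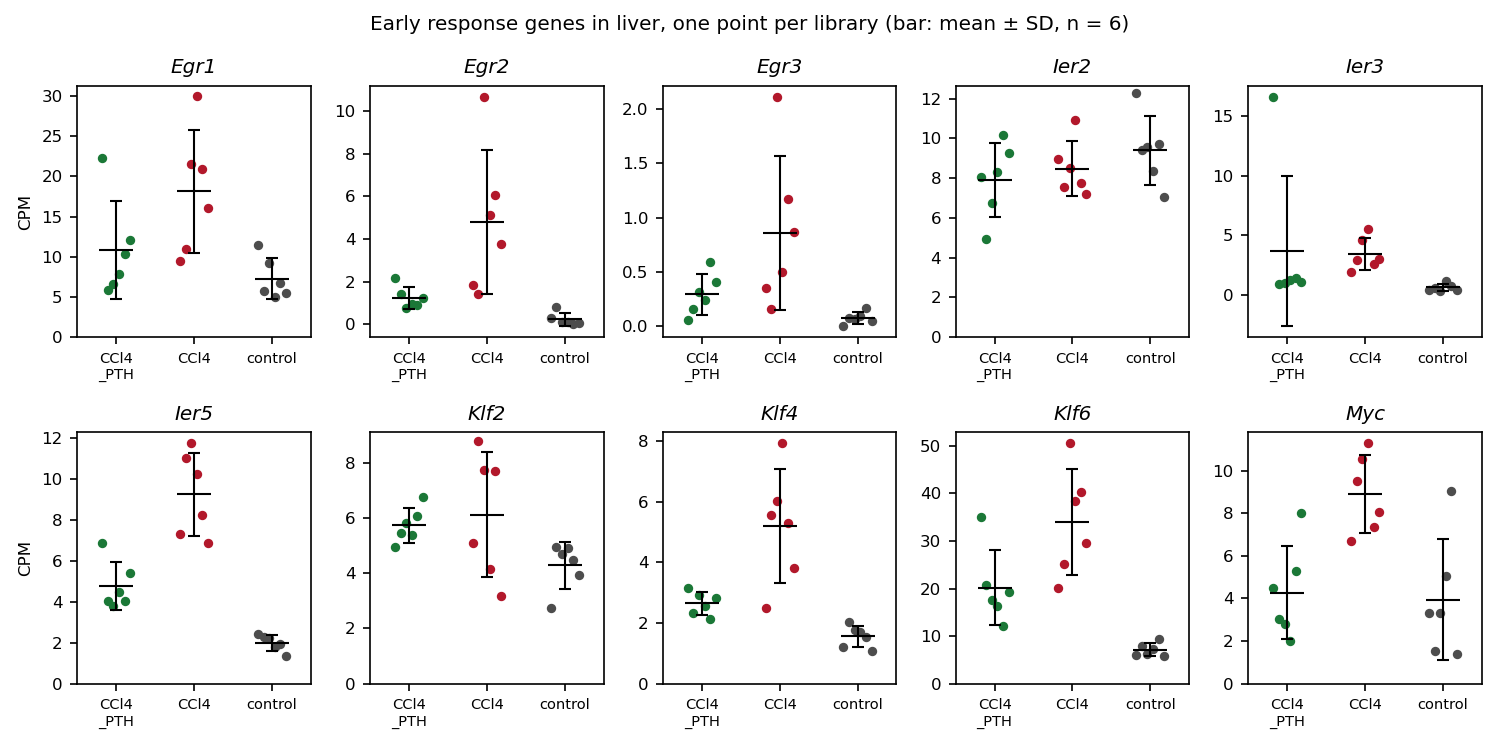
Level of each of the 10 genes in every library, in CPM on the vertical axes, for CCl4_PTH, CCl4 and control livers from left to right. Points are libraries and bars are the mean ± SD of 6. The 6 CCl4 livers lie above the 6 control livers without overlap for Egr2, Ier3, Ier5, Klf4 and Klf6, and 1 CCl4_PTH liver stands alone at 16.6 CPM of Ier3.

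CCl4 livers held more RNA of 9 of the 10 genes than control livers. Egr2 and Egr3 differed most, at 20.3-fold and 11.8-fold, followed by Ier3 at 5.47-fold, Klf6 at 4.76-fold, Ier5 at 4.63-fold and Klf4 at 3.34-fold. The folds of Egr2 and Egr3 rest on near-empty control livers. Egr1, Myc and Klf2 differed less, and Ier2 was not called. Over all genes tested, 47.4% were called, 26.3% higher and 21.2% lower in CCl4 livers. The median log2 fold change of the 10 genes was 1.98, against 0.05 over all genes tested. In 5 of the 10 genes (Egr2, Ier3, Ier5, Klf4 and Klf6), every CCl4 liver was above every control liver, a pattern found in 14.8% of all genes tested.

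CCl4_PTH livers held less RNA than CCl4 livers of 4 of the 10 genes, Egr2, Ier5, Klf4 and Klf6. Over all genes, 12.1% were called in this comparison, 4.95% lower and 7.1% higher. The median log2 fold change of the 10 genes was −0.85, against −0.03 over all genes. Ier5 was the single gene of the 10 whose CCl4_PTH livers all lay below the CCl4 livers, a pattern found in 1.87% of all genes. The opposite pattern, every CCl4_PTH liver above every CCl4 liver, was found in 2.2% of all genes and in none of the 10. Without CCl4_PTH 1, 6 of the 10 were called lower, Egr1 and Ier3 being the added genes. All genes called in this comparison numbered 2632 with all libraries and 1509 to 3854 over the 12 fits that left out 1 library. Counts without CCl4_PTH 1, here and for the lists below, have no exact share of all genes beside them. Against control livers, CCl4_PTH livers were higher for 6 of the 10, Egr2, Egr3, Ier3, Ier5, Klf4 and Klf6, where 27.7% of all genes were called, 17.4% higher and 10.3% lower. Every CCl4_PTH liver was above every control liver for 4 of the 10, Ier5, Klf2, Klf4 and Klf6, as it was for 9.79% of all genes. The 3 comparisons use the same 18 livers in pairs of groups, so they are not independent of each other.

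**Figure D2:**
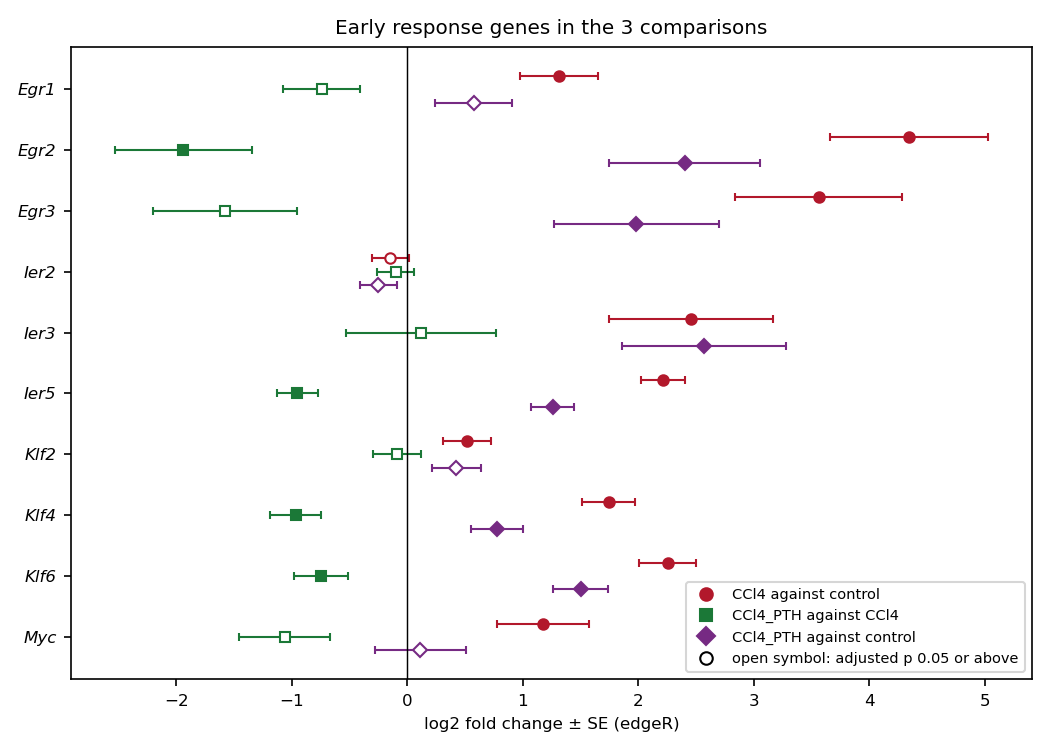
Log2 fold change of each of the 10 genes in the 3 comparisons, with SE bars, from the edgeR fit over 18 libraries. Filled points passed the adjusted p threshold: 9 genes were higher in CCl4 than in control, 4 were lower in CCl4_PTH than in CCl4, and 6 were higher in CCl4_PTH than in control.

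Egr1 (ENSMUSG00000038418, chromosome 18, plus strand) encodes the broadest of the EGR factors, induced in hepatocytes, macrophages and stromal cells alike. Its level ran from 5.81 to 22.3 CPM in CCl4_PTH livers, with a median of 9.15, from 9.44 to 30.0 CPM in CCl4 livers, with a median of 18.5, and from 5.05 to 11.5 CPM in control livers, with a median of 6.27. The groups overlapped: 2 CCl4 livers, at 9.44 and 10.9 CPM, lay under the highest control liver. Egr1 rose in CCl4 livers against control livers by a log2 fold change of 1.32 ± 0.34 (SE, adjusted p = 0.0038). Against CCl4 livers, CCl4_PTH livers had a log2 fold change of −0.74 ± 0.33 (95% interval −1.45 to −0.03, adjusted p = 0.156), which did not pass. It passed without CCl4_PTH 1, which held the highest Egr1 of its group, at −1.06 (adjusted p = 0.0186). Between CCl4_PTH and control livers it was 0.57 ± 0.33 (adjusted p = 0.219).

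Egr2 (ENSMUSG00000037868, chr10:67535475-67542188, plus strand) encodes the factor needed for myelination by Schwann cells, and it is also induced in activated macrophages and T cells. It was at 0.755 to 2.19 CPM in CCl4_PTH livers, with a median of 1.10, at 1.41 to 10.6 CPM in CCl4 livers, with a median of 4.43, and at 0 to 0.819 CPM in control livers, with a median of 0.114. Every CCl4 liver was above every control liver, and the lowest CCl4 livers lay within the range of the CCl4_PTH livers. Control livers held only 0 to 43 reads of Egr2 each, so its control level is a low one. Egr2 rose in CCl4 against control livers by a log2 fold change of 4.34 ± 0.69 (SE, adjusted p = 5.53e-05) and fell in CCl4_PTH against CCl4 livers by 1.94 on the log2 scale (SE 0.59, adjusted p = 0.0391). It was higher in CCl4_PTH than in control livers, at 2.40 ± 0.65 (adjusted p = 0.0110). The size of both differences from control depended on control 2, the control liver with the most Egr2. Without it they were 5.17 for CCl4 and 3.23 for CCl4_PTH, and voom gave 5.30 and 3.51. The call between CCl4_PTH and CCl4 was kept without CCl4 1, CCl4 2, CCl4 8 or CCl4_PTH 1 and lost in the other 8 of 12 fits that left out 1 library (log2 −2.15 to −1.54, adjusted p up to 0.126).

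The promoter of Egr2 is shown because it is the one of the members' promoters at hand that holds a CArG box, the site bound by SRF. RefSeq's table for GRCm38.p6 held promoter windows, from 250 bases before to 50 bases after the start, for 6 of the 10 genes (Egr2, Ier3, Ier5, Klf2, Klf4 and Klf6). In the Egr2 window (chr10:67537619-67537918, plus strand, 5′ to 3′), capitals mark the CArG box, which begins 72 bases before the start:
Egr2 promoter: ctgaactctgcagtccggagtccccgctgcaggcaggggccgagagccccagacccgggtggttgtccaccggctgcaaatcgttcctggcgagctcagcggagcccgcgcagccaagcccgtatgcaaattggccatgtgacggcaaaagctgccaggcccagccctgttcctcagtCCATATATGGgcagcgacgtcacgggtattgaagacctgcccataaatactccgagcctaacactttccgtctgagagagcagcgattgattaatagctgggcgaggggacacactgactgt
A CArG box, searched on both strands, was found in 1.63% of the 32851 windows of that table and in 1 of the 6 windows of these genes. A match of letters is a description and no measure of binding in these livers.

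Egr3 (ENSMUSG00000033730, chr14:70077203-70082614, plus strand), whose protein is known from muscle spindle development and T cell restraint, had the lowest level per kilobase of the 10 in each group. It was at 0.0511 to 0.591 CPM in CCl4_PTH livers, with a median of 0.272, at 0.155 to 2.11 CPM in CCl4 livers, with a median of 0.683, and at 0 to 0.168 CPM in control livers, with a median of 0.0674. Control livers held 0 to 11 reads each, and all 3 groups overlapped. Egr3 rose in CCl4 against control livers by 3.56 ± 0.72 (log2, SE, adjusted p = 0.000489), or by 4.30 with library sizes only, and was higher in CCl4_PTH than in control livers at 1.98 ± 0.71 (adjusted p = 0.0446). The second of these calls was kept without control 5, CCl4_PTH 1 or CCl4_PTH 2 and lost in the other 9 of 12 fits that left out 1 library (1.66 to 2.43, adjusted p up to 0.0968). Between CCl4_PTH and CCl4 livers the log2 fold change was −1.58 ± 0.63 (95% interval −2.91 to −0.25, adjusted p = 0.106), and this difference did not pass.

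Within the EGR genes the mix changed as well as the amount. Per kilobase of exon, Egr2 made up 13.8% ± 4.98 of the summed Egr1, Egr2 and Egr3 level in CCl4_PTH livers, 23.1% ± 8.04 in CCl4 livers and 4.23% ± 5.70 in control livers (SD, n = 6 each). The share was higher in CCl4 than in control livers by 18.9 percentage points (two-sided exact permutation test, p = 0.00433, adjusted p = 0.00974 over 9 tests of shares) and higher in CCl4_PTH than in control livers by 9.60 points (exact p = 0.0130, adjusted p = 0.0195). It fell by 9.32 points in CCl4_PTH against CCl4 livers (exact p = 0.0325, adjusted p = 0.0417), and this last call held without CCl4 2 or CCl4_PTH 2 and was lost in the other 10 of 12 repeats that left out 1 library (−11.3 to −6.50 points, adjusted p up to 0.0835). The 3 shares described for these families were chosen after the values were seen. They come from the same counts as the calls of single genes, so their tests are no separate support for those calls.

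Ier2 (ENSMUSG00000053560, chr8:84661331-84662852, minus strand), a nuclear protein gene with a single exon, was the one gene of the 10 not called in any comparison. Its level ran from 4.91 to 10.2 CPM in CCl4_PTH livers, with a median of 8.16, from 7.19 to 10.9 CPM in CCl4 livers, with a median of 8.14, and from 7.05 to 12.3 CPM in control livers, with a median of 9.49. The 3 groups overlapped over most of their ranges. The log2 fold change was −0.15 ± 0.16 for CCl4 against control (95% interval −0.49 to 0.19, adjusted p = 0.470), −0.10 ± 0.16 for CCl4_PTH against CCl4 (−0.44 to 0.24, adjusted p = 0.738) and −0.25 ± 0.16 for CCl4_PTH against control (−0.59 to 0.09, adjusted p = 0.259). Scaling by library totals alone, which moved the median of all genes to 0.63 in CCl4 against control, turned the first of these to 0.40 and the last to 0.20.

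Ier3 (ENSMUSG00000003541, chr17:35821684-35822923, plus strand) encodes a stress-induced protein, also called IEX-1, that modulates cell death and the ERK and NF-κB pathways. In CCl4_PTH livers it was at 0.911, 1.02, 1.11, 1.24 and 1.42 CPM in 5 livers and at 16.6 CPM in CCl4_PTH 1. In CCl4 livers it ran from 1.88 to 5.50 CPM, with a median of 2.97, and in control livers from 0.351 to 1.19 CPM, with a median of 0.515. Every CCl4 liver was above every control liver, and 5 of the 6 CCl4_PTH livers were below every CCl4 liver.

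Ier3 rose in CCl4 against control livers by 2.45 ± 0.71 (log2, SE, adjusted p = 0.00861). Between CCl4_PTH and CCl4 livers the log2 fold change was 0.12 ± 0.65 (adjusted p = 0.934) over all libraries and −1.57 (adjusted p = 0.00219) without CCl4_PTH 1. Ier3 was called higher in CCl4_PTH than in control livers, at 2.57 ± 0.71 (adjusted p = 0.0123), and this was 0.85 without CCl4_PTH 1 (adjusted p = 0.0529) and 1.03 with voom (adjusted p = 0.0925). The neutrophil and cholangiocyte markers of CCl4_PTH 1 were high as well, and their part in its Ier3 level was not tested.

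Ier5 (ENSMUSG00000056708, chr1:155096361-155099636, minus strand), whose protein acts with protein phosphatase 2A on heat shock factor 1, was called in all 3 comparisons. It was at 3.82 to 6.87 CPM in CCl4_PTH livers, with a median of 4.24, at 6.88 to 11.7 CPM in CCl4 livers, with a median of 9.25, and at 1.33 to 2.42 CPM in control livers, with a median of 2.07. None of the 3 groups overlapped, although the highest CCl4_PTH liver and the lowest CCl4 liver were nearly level. Ier5 rose in CCl4 against control livers by 2.21 ± 0.19 (log2, SE, adjusted p = 7.27e-08), fell in CCl4_PTH against CCl4 livers by 0.95 (SE 0.18, adjusted p = 0.00317) and was higher in CCl4_PTH than in control livers at 1.26 ± 0.18 (adjusted p = 7.75e-05). All 3 calls held in each of 12 fits that left out 1 library.

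The mix of IER RNAs differed between groups. The Ier2 share restates the levels above, in which Ier3 and Ier5 differed from control livers and Ier2 was not called. Per kilobase of exon, Ier2 made up 60.9% ± 18.5 of the summed Ier2, Ier3 and Ier5 level in CCl4_PTH livers, 49.4% ± 6.22 in CCl4 livers and 84.1% ± 3.70 in control livers (SD, n = 6 each). The share was lower by 34.7 points in CCl4 than in control livers and by 23.2 points in CCl4_PTH than in control livers, each with an exact permutation p of 0.00216, the smallest that 6 against 6 can give, and an adjusted p of 0.00649. The difference between CCl4_PTH and CCl4 livers was 11.5 points (exact p = 0.177, adjusted p = 0.177), and 18.9 points without CCl4_PTH 1 (exact p = 0.00433, adjusted p = 0.00779).

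**Figure D3:**
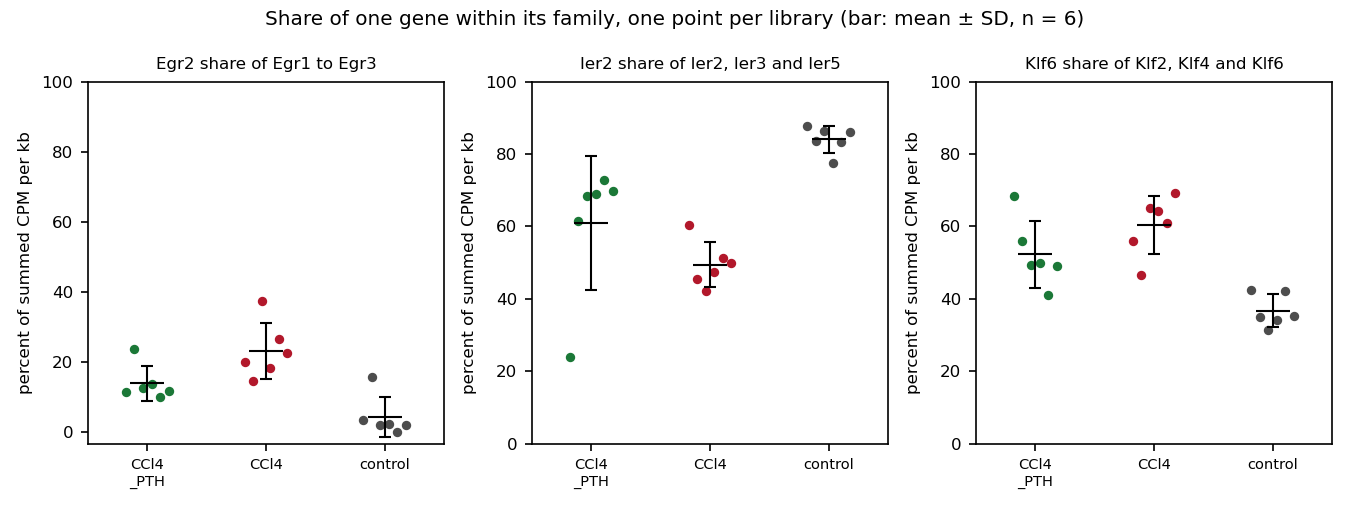
Share of Egr2 within Egr1 to Egr3, of Ier2 within Ier2, Ier3 and Ier5, and of Klf6 within Klf2, Klf4 and Klf6, in percent of the summed CPM per kilobase, for CCl4_PTH, CCl4 and control livers. Points are libraries and bars are the mean ± SD of 6. Ier2 averages 60.9%, 49.4% and 84.1% of the summed Ier2, Ier3 and Ier5 level in these groups, with CCl4_PTH 1 alone at 24.0%.

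Klf2 (ENSMUSG00000055148, chr8:72319033-72321656, plus strand), the flow-responsive factor of endothelium that also keeps T cells quiescent, had a smaller log2 fold change in CCl4 against control livers than Klf4 and Klf6. It was at 4.94 to 6.76 CPM in CCl4_PTH livers, with a median of 5.63, at 3.19 to 8.79 CPM in CCl4 livers, with a median of 6.41, and at 2.73 to 4.93 CPM in control livers, with a median of 4.57. CCl4 livers were the most spread, and 2 of them lay within the control range. The log2 fold change in CCl4 against control livers was 0.52 ± 0.21 (SE, adjusted p = 0.0491), a call kept without CCl4 5 or CCl4 8 and lost in the other 10 of 12 fits that left out 1 library (0.35 to 0.61, adjusted p up to 0.180), and in 5 of 9 other settings. Between CCl4_PTH and CCl4 it was −0.09 ± 0.21 (95% interval −0.54 to 0.35, adjusted p = 0.826). Between CCl4_PTH and control it was 0.42 ± 0.21 (adjusted p = 0.142), although no CCl4_PTH liver lay below a control liver.

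Klf4 (ENSMUSG00000003032, chr4:55527143-55532466, minus strand) encodes a factor of epithelial differentiation, of endothelium and of reprogramming to pluripotency. It ran from 2.13 to 3.16 CPM in CCl4_PTH livers, with a median of 2.69, from 2.498 to 7.95 CPM in CCl4 livers, with a median of 5.43, and from 1.07 to 2.04 CPM in control livers, with a median of 1.62. Both CCl4_PTH and CCl4 livers lay above all control livers, and 1 CCl4 liver, at 2.498 CPM, lay within the CCl4_PTH range. Klf4 rose in CCl4 against control livers by 1.74 ± 0.23 (log2, SE, adjusted p = 6.6e-06), fell in CCl4_PTH against CCl4 livers by 0.97 (SE 0.22, adjusted p = 0.00925) and was higher in CCl4_PTH than in control livers at 0.77 ± 0.22 (adjusted p = 0.0151).

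Klf6 (ENSMUSG00000000078, chr13:5861482-5870394, plus strand), first described in rat as a gene induced when hepatic stellate cells are activated, had the highest level per kilobase of the 10 in CCl4 livers. It ran from 12.1 to 35.1 CPM in CCl4_PTH livers, with a median of 18.4, from 20.1 to 50.6 CPM in CCl4 livers, with a median of 33.9, and from 5.90 to 9.36 CPM in control livers, with a median of 6.81. Both CCl4_PTH and CCl4 livers lay above all control livers and overlapped each other, CCl4_PTH 1 being the highest of its group. Klf6 rose in CCl4 against control livers by 2.25 ± 0.24 (log2, SE, adjusted p = 1.14e-06) and was higher in CCl4_PTH than in control livers at 1.502 ± 0.24 (adjusted p = 0.000189). It fell in CCl4_PTH against CCl4 livers by 0.75 (SE 0.23, adjusted p = 0.0419), a call kept without CCl4 1, CCl4 2, CCl4 8 or CCl4_PTH 1 and lost in the other 8 of 12 fits that left out 1 library (log2 −0.96 to −0.60, adjusted p up to 0.124). Without CCl4_PTH 1 the same change was −0.96 (adjusted p = 0.00352).

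The Klf4 and Klf2 promoters are shown because they hold sites of the kind that other genes of the 10 bind: the EGR site GCGTGGGCG or GCGGGGGCG, and the E-box CACGTG that MYC with MAX binds. In the Klf4 window (chr4:55532426-55532725, minus strand), capitals mark the EGR site on the opposite strand, 194 bases before the start, and the E-box, 182 bases before it. In the Klf2 window (chr8:72318812-72319111, plus strand), capitals mark an EGR site 199 bases before the start:
Klf4 promoter: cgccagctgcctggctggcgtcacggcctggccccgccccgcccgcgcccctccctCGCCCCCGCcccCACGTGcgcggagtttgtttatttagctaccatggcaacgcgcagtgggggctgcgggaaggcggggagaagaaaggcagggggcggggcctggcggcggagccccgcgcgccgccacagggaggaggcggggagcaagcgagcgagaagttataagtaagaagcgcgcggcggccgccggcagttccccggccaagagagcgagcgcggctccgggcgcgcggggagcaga
Klf2 promoter: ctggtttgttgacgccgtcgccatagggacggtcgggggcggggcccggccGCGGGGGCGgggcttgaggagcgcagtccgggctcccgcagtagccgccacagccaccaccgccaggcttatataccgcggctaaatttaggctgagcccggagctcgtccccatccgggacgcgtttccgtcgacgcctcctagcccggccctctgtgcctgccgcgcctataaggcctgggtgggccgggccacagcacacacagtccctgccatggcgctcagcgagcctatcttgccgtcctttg
An EGR site, on either strand, was in 2 of these genes' 6 windows and in 3.47% of the 32851 windows, and the E-box was in 2 of 6 (Klf4, and Klf6 at 43 bases before the start) and in 7.15%. Both EGR sites overlap matches of the KLF box CCNCNCCC, which was in 5 of 6 windows and in 49.5% of all. The cyclic AMP response element TGACGTCA and the AP-1 site TGANTCA were in none of the 6 windows, and in 1.79% and 7.81% of all. These matches describe the letters of the windows only.

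Klf6 also took a larger part of the summed Klf2, Klf4 and Klf6 level in CCl4 and CCl4_PTH than in control livers. The other KLF genes are not in this sum. Per kilobase of exon it made up 52.2% ± 9.20 of the summed Klf2, Klf4 and Klf6 level in CCl4_PTH livers, 60.4% ± 8.09 in CCl4 livers and 36.7% ± 4.50 in control livers (SD, n = 6 each). The share was 23.6 points higher in CCl4 than in control livers (exact permutation p = 0.00216, adjusted p = 0.00649) and 15.5 points higher in CCl4_PTH than in control livers (exact p = 0.00649, adjusted p = 0.0117). The difference between CCl4_PTH and CCl4 livers was −8.12 points (exact p = 0.141, adjusted p = 0.158), and −11.3 points without CCl4_PTH 1 (exact p = 0.0346, adjusted p = 0.0390).

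Myc (ENSMUSG00000022346, chr15:61985391-61990374, plus strand) was higher in CCl4 livers and spread widely in the other groups. It ran from 2.002 to 8.02 CPM in CCl4_PTH livers, with a median of 3.76, from 6.71 to 11.3 CPM in CCl4 livers, with a median of 8.80, and from 1.37 to 9.07 CPM in control livers, with a median of 3.34. A single control liver, at 9.07 CPM, lay within the CCl4 range, and a single CCl4_PTH liver, at 8.02 CPM, did so too. Myc rose in CCl4 against control livers by 1.17 ± 0.40 (log2, SE, adjusted p = 0.0214), and at 0.98 without control 2 (adjusted p = 0.0502) and 0.96 without control 8 (adjusted p = 0.0512) it did not pass. Between CCl4_PTH and CCl4 livers it was −1.06 ± 0.40 (95% interval −1.90 to −0.22, adjusted p = 0.0870), which did not pass, although DESeq2 (adjusted p = 0.0312), voom (0.0269), a fit of the 2 groups alone (0.0406) and a fit without CCl4_PTH 8 (−1.33, adjusted p = 0.0407) called it lower. Myc was not called there in 6 of 9 other settings (adjusted p up to 0.463) or in 11 of 12 fits that left out 1 library (up to 0.188). Between CCl4_PTH and control livers it was 0.11 ± 0.39 (95% interval −0.73 to 0.95, adjusted p = 0.868).

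Levels can be set side by side between genes only per kilobase of exon. On that scale Ier2 led in CCl4_PTH livers at 5.19 CPM per kb ± 1.22 and in control livers at 6.17 ± 1.14, and Klf6 led in CCl4 livers at 7.74 ± 2.55, with Ier2 next at 5.57 ± 0.894 (SD, n = 6 each). In control livers the order after Ier2 was Klf2, Klf6, Egr1, Myc, Ier5, Ier3, Klf4, Egr2 and Egr3, the last at 0.0166 CPM per kb. Only the steps from Ier2 to Klf2, from Klf2 to Klf6 and from Klf4 to Egr2 exceeded the larger SD of the pair there. In CCl4 livers the order was Klf6, Ier2, Egr1, Klf2, Myc, Ier3, Ier5, Klf4, Egr2 and Egr3, and the steps beyond the spread were from Ier5 to Klf4 and from Egr2 to Egr3. In CCl4_PTH livers the order was Ier2, Klf6, Ier3, Klf2, Egr1, Myc, Ier5, Klf4, Egr2 and Egr3, and the steps below Ier5 exceeded the spread. Ier3 stood at 3.28 CPM per kb there with CCl4_PTH 1 included. Without that library it averaged 1.01 CPM per kb ± 0.175 (SD, n = 5) and came after Ier5, the order of the other 9 genes being the same.

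Livers of a group did not rank alike for all 10 genes. CCl4 4 was among the 3 highest of its group for all 10 genes and the highest for 4, and CCl4 5 was the highest for 5. CCl4 1 was the lowest of its group for 5 genes, and control 8 for 5. CCl4_PTH 1 was the highest of its group for 6 genes and the lowest for 2. After each group's mean was subtracted from log2 CPM, the correlation of pairs of these genes over the 18 libraries had a median of 0.23 over 45 pairs, with 11 pairs below 0. The highest was 0.69 for Ier3 with Klf6, followed by 0.64 for Egr1 with Ier5 and for Klf4 with Klf6, and the lowest was −0.46 for Egr2 with Myc. These values share libraries and depth and are a description. They include CCl4_PTH 1, the highest of its group for Ier3 and Klf6, and neither they nor the nearest genes below were computed without it.

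By the same measure, among 14017 genes with at least 1 CPM on average, the nearest genes were Gm20045 (0.86), Prdm15 (0.85) and Dusp1 (0.85) for Egr1, and Trappc10 (0.83), Phlpp2 (0.82) and Utp15 (0.82) for Egr2. For Ier2 they were Brd2 (0.77), Gm37305 (0.75) and Trib1 (0.74), for Ier3 Itga5 (0.91), Cpne8 (0.91) and Apoa4 (0.90), and for Ier5 Mllt11 (0.89), Ccdc86 (0.85) and Hdac4 (0.82). For Klf2 they were Ppm1h (0.92), Abi3 (0.90) and Csf2ra (0.88), for Klf4 Capn2 (0.83), Tuba4a (0.82) and Vps33b (0.81), and for Klf6 Lilrb4a (0.91), Lilr4b (0.91) and D10Wsu102e (0.90), where Lilrb4a and Lilr4b are near copies whose reads the counting may have split. Myc was nearest to Gm28182 (0.88), Foxq1 (0.85) and Gm44639 (0.83). None of the 10 early response genes was among the 3 nearest of another.

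Many early response RNAs carry AU-rich elements in the 3′ untranslated region that shorten their life. The heptamer TATTTAT on the transcribed strand was found in 3 of the 10 genes (30.0%), against 26.2% of 21011 other protein-coding genes and 30.5% of 11780 others with a region of 442 to 3111 bases, the range of the 10, so its share was near the background. The shorter AU-rich pentamer ATTTA was counted as well, without a comparison with other genes. Among genes without a heptamer, Egr3 held 7 pentamers, Egr2 3, Egr1, Ier5 and Myc 2 each, Klf4 1 and Ier2 0. Ier3 held 4 heptamers, Klf6 held 2 and Klf2 held 1. The first in each is shown in capitals (GRCm38, plus strand, chr17:35822482-35822508, chr13:5868491-5868517 and chr8:72320989-72321015 in turn):
Ier3 site: gtctaattaaTATTTATgtatttatgt
Klf6 site: ctacgtctctTATTTATgccttgagga
Klf2 site: aacagactgcTATTTATtggaccttag
RNA decay was not measured in these livers.

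Other early response transcription factors were higher in CCl4 livers for 9 of 16 genes tested and lower for 1, with a median log2 fold change of 1.25, against 0.05 over all genes. Of all genes, 26.3% were higher and 21.2% lower there. Atf3, a stress-induced repressor, was at 2.29 ± 0.658 CPM in CCl4_PTH, 14.6 ± 5.04 CPM in CCl4 and 0.388 ± 0.296 CPM in control livers (SD, n = 6 each). It rose in CCl4 against control livers by 5.19 ± 0.44 (log2, SE, adjusted p = 1.03e-07) and fell in CCl4_PTH against CCl4 livers by 2.67 (SE 0.38, adjusted p = 0.000538). Fos, a subunit of AP-1, rose in CCl4 against control livers by 2.62 ± 0.44 (adjusted p = 7.59e-05). Of the 16, 5 fell in CCl4_PTH against CCl4 livers, where 4.95% of all genes were lower, with a median of −0.82 against −0.03 over all genes. They were Atf3, Nr4a3 at −2.62, Fos at −1.52, Nr4a1 at −1.23, and Jun, the partner of Fos, at −1.02 ± 0.23 (adjusted p = 0.0087), all 5 being named after their values were seen. Against control livers 2 of the 16 were higher in CCl4_PTH and 2 lower, and without CCl4_PTH 1 the number higher was 1. Of all genes, 17.4% were higher and 10.3% lower there.

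Feedback and other primary response genes were higher in CCl4 against control livers for 18 of 35 and lower for 6, with a median of 0.61, where 26.3% of all genes were higher and 21.2% lower. Rhob, a small GTPase, rose by 1.07 ± 0.12 (log2, SE, adjusted p = 1.87e-06), and Tnfaip3, the brake on NF-κB also known as A20, rose by 2.40 ± 0.30 (adjusted p = 5.29e-06). Of the 35, 6 fell and 2 rose in CCl4_PTH against CCl4 livers, with a median of −0.26, where 4.95% of all genes were lower and 7.1% higher. Without CCl4_PTH 1 the number that fell was 11. Dusp5, a phosphatase that acts on ERK in the nucleus, fell by 1.71 (SE 0.38, adjusted p = 0.0079), and Gadd45a, a growth arrest gene, by 1.02 (SE 0.23, adjusted p = 0.0089). Set against control livers, CCl4_PTH livers were higher for 8 of the 35 and lower for 1, and without CCl4_PTH 1 for 7 and 2. These shares are near the 17.4% of all genes called higher and below the 10.3% called lower. Jun, Dusp5 and Gadd45a have an annotated antisense neighbour, and the sources used here do not say whether the counting used strand.

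Among 8 corepressors of EGR and partners of SRF, 3 were higher and 1 lower in CCl4 against control livers, counts near the 26.3% and 21.2% of all genes, and the corepressors Nab1 and Nab2 were not called. Mkl1, an actin-sensing coactivator of SRF, was at 7.29 ± 1.32 CPM in CCl4_PTH, 10.5 ± 2.04 CPM in CCl4 and 5.26 ± 0.526 CPM in control livers (SD, n = 6 each). It rose in CCl4 against control livers by 0.998 ± 0.14 (log2, SE, adjusted p = 9.09e-06), while Elk3, an ETS partner, rose by 0.69 ± 0.11 (adjusted p = 7.1e-05). Mkl1 was the only one of the 8 called in CCl4_PTH against CCl4 livers, falling by 0.53 (SE 0.13, adjusted p = 0.0159), and in CCl4_PTH against control livers Elk3 and Mkl1 were higher. Of all genes, 12.1% were called in the first of these comparisons and 17.4% were higher in the second, so both counts were near the background. Mkl1 and Elk3 each have an annotated antisense neighbour.

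Among the other KLF genes more were lower than higher in CCl4 livers. Of 12 tested, 7 were lower and 3 higher in CCl4 against control livers, with a median log2 fold change of −0.52. Of all genes, 21.2% were lower and 26.3% higher there. Klf12 was at −1.19 ± 0.18 on the log2 scale (SE, adjusted p = 2.64e-05), and Klf9, a target of glucocorticoid and thyroid hormone, was at −0.99 ± 0.16 (adjusted p = 5.01e-05). Of the 12, 2 were called in CCl4_PTH against CCl4 livers, both higher: Klf12 at 0.82 ± 0.18 (adjusted p = 0.00726) and Klf15, a fasting-induced regulator of gluconeogenesis, at 0.69 ± 0.19 (adjusted p = 0.0236). In that comparison 7.1% of all genes were higher and 4.95% lower. Without CCl4_PTH 1, 3 of the 12 were higher and 1 was lower. Klf5 was higher, and Klf9 and Klf10 were lower, in CCl4_PTH against control livers, where 17.4% of all genes were higher and 10.3% lower.

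Of 12 genes of the MYC and MAX network, Max and Mlxip were higher and Mlxipl and Mxi1 lower in CCl4 against control livers, fewer calls than the 47.4% over all genes. In CCl4_PTH against CCl4 livers, which share the CCl4 livers with that comparison, Mlxipl and Mxi1 were higher and Max and Mlxip lower. These calls are a larger part of the 12 than the 7.1% of all genes called higher and 4.95% called lower there. Max was at 11.1 ± 0.538 CPM in CCl4_PTH, 15.2 ± 1.34 CPM in CCl4 and 10.2 ± 0.882 CPM in control livers (SD, n = 6 each). Its log2 fold change was 0.58 ± 0.08 for CCl4 against control (SE, adjusted p = 8.44e-06) and −0.46 ± 0.08 for CCl4_PTH against CCl4 (adjusted p = 0.00158). Mlxipl, the carbohydrate-sensing factor ChREBP, was at −2.11 ± 0.31 for CCl4 against control (adjusted p = 2.8e-05) and at 1.19 ± 0.30 for CCl4_PTH against CCl4 (adjusted p = 0.0174), and it has an annotated antisense neighbour. Mlxip was higher and Mlxipl lower in CCl4_PTH against control livers, the first of these calls being lost without CCl4_PTH 1. Of all genes, 17.4% were higher and 10.3% lower in that comparison.

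Of 22 genes of ribosome building and growth known as MYC targets, 13 were higher and 1 lower in CCl4 against control livers, with a median of 0.24. Of all genes, 26.3% were higher and 21.2% lower there. Of the 22, 13 fell in CCl4_PTH against CCl4 livers, with a median of −0.40, against −0.03 over all genes, of which 4.95% were called lower. Rrp12, which helps export and process ribosomal precursors, rose in CCl4 against control livers by 1.20 ± 0.14 (log2, SE, adjusted p = 1.78e-06) and fell in CCl4_PTH against CCl4 livers by 1.06 (SE 0.14, adjusted p = 0.000205). Cad, the first enzyme of pyrimidine synthesis, rose in CCl4 against control livers by 1.28 ± 0.17 (adjusted p = 5.67e-06), and Srm, spermidine synthase, fell in CCl4_PTH against CCl4 livers by 1.02 (SE 0.15, adjusted p = 0.000684). Against control livers, CCl4_PTH livers were higher for 2 of the 22 and lower for 3, and without CCl4_PTH 1 these counts were 1 and 7. With all libraries, 17.4% of all genes were higher and 10.3% lower. Myc itself was at −1.06 ± 0.40 in CCl4_PTH against CCl4 livers, a difference that edgeR did not call (adjusted p = 0.0870). DESeq2 and voom called it lower, and 6 of 9 other settings did not call it.

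Of 9 tested genes listed here for their links to KLF2 and KLF4 in endothelium, 5 were higher in CCl4 against control livers. Kdr was lower, and the median of the 9 was 0.77. Of all genes, 26.3% were higher and 21.2% lower there. Cx3cr1 rose by 3.58 ± 0.36 (log2, SE, adjusted p = 5.24e-07) and Thbd, thrombomodulin, by 2.198 ± 0.32 (adjusted p = 2.76e-05). Cx3cr1 is also a gene of monocytes and macrophages, and it has an annotated antisense neighbour. In CCl4_PTH against CCl4 livers edgeR called none of the 9, where 12.1% of all genes were called. Of the 9, 2 had an unadjusted p under 0.05, and without CCl4_PTH 1 edgeR called 1 higher and 2 lower. Cx3cr1 and Thbd were higher in CCl4_PTH against control livers, as were 17.4% of all genes.

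**Figure D4:**
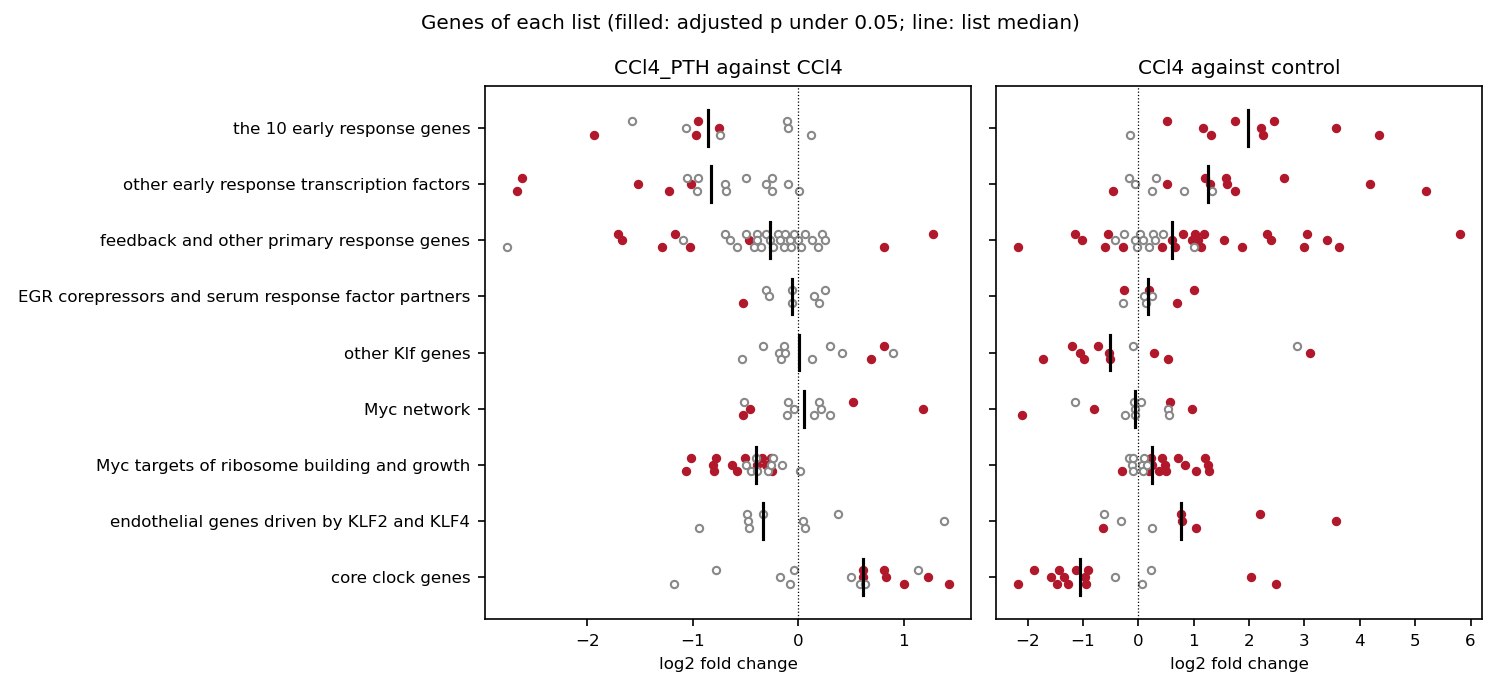
Log2 fold change of the 10 genes and of every tested gene in the 8 lists, with the median of each list marked. The comparisons drawn are CCl4_PTH against CCl4 and CCl4 against control. Myc targets of ribosome building lie mostly below 0 in CCl4_PTH against CCl4 (13 of 22 called lower). The genes of the core clock list, output factors included, lie mostly below 0 in CCl4 against control (11 of 16 called lower).

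Cell type markers differed between groups as well. Of all genes tested, 26.3% were higher and 21.2% lower in CCl4 against control livers. In CCl4_PTH livers 7.1% were higher and 4.95% lower against CCl4 livers, and 17.4% and 10.3% against control livers. Hepatocyte markers, which check the tissue, summed to 39087 to 57613 CPM in CCl4_PTH, 23126 to 56214 CPM in CCl4 and 49549 to 65146 CPM in control livers. Of the 10, 5 were lower in CCl4 against control livers, 1 (Asgr1) was higher in CCl4_PTH against CCl4 livers and 1 (Apoa1) was lower in CCl4_PTH against control livers. Macrophage and Kupffer cell markers were called higher in CCl4 against control livers for 11 of 13, and their sum ran from 321 to 731 CPM in CCl4_PTH, from 473 to 1237 CPM in CCl4 and from 158 to 253 CPM in control livers. Trem2, Itgax, Ccr2 and Cd68 fell and Clec4f rose in CCl4_PTH against CCl4 livers. Neutrophil markers were higher in CCl4 against control livers for 9 of 9 tested, with sums of 14.4 to 219 CPM in CCl4_PTH, 17.9 to 117 CPM in CCl4 and 2.07 to 5.69 CPM in control livers, where 2 of the 10 markers listed were at 0.

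Stellate cell and myofibroblast markers were higher in CCl4 against control livers for 7 of 10, with sums of 547 to 1059 CPM in CCl4_PTH, 540 to 937 CPM in CCl4 and 260 to 326 CPM in control livers. Vascular endothelial markers were higher for 6 of 8, with sums of 95.5 to 131 CPM in CCl4_PTH, 101 to 144 CPM in CCl4 and 74.6 to 91.3 CPM in control livers, while sinusoidal markers summed to 391 to 533 CPM in CCl4_PTH, 415 to 441 CPM in CCl4 and 386 to 459 CPM in control livers. Cholangiocyte markers were higher for 6 of 6, with sums of 58.6 to 254 CPM in CCl4_PTH, 91.3 to 175 CPM in CCl4 and 11.9 to 26.9 CPM in control livers. Sums of T and NK cell markers ran from 1.26 to 10.3, from 2.57 to 28.8 and from 1.48 to 2.79 CPM in CCl4_PTH, CCl4 and control livers, and those of B cell markers from 2.93 to 8.62, from 4.41 to 20.1 and from 1.60 to 4.67 CPM. In CCl4_PTH against CCl4 livers, no tested marker of neutrophils, stellate cells and myofibroblasts, vascular endothelium or cholangiocytes was called. No T and NK cell or B cell marker was called there either, and of the sinusoidal markers Clec4g was higher and Stab1 lower. In whole tissue, fewer cells of a type and less RNA per cell cannot be told apart. The part of these cell types in the levels of the 10 genes was not tested.

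**Figure D5:**
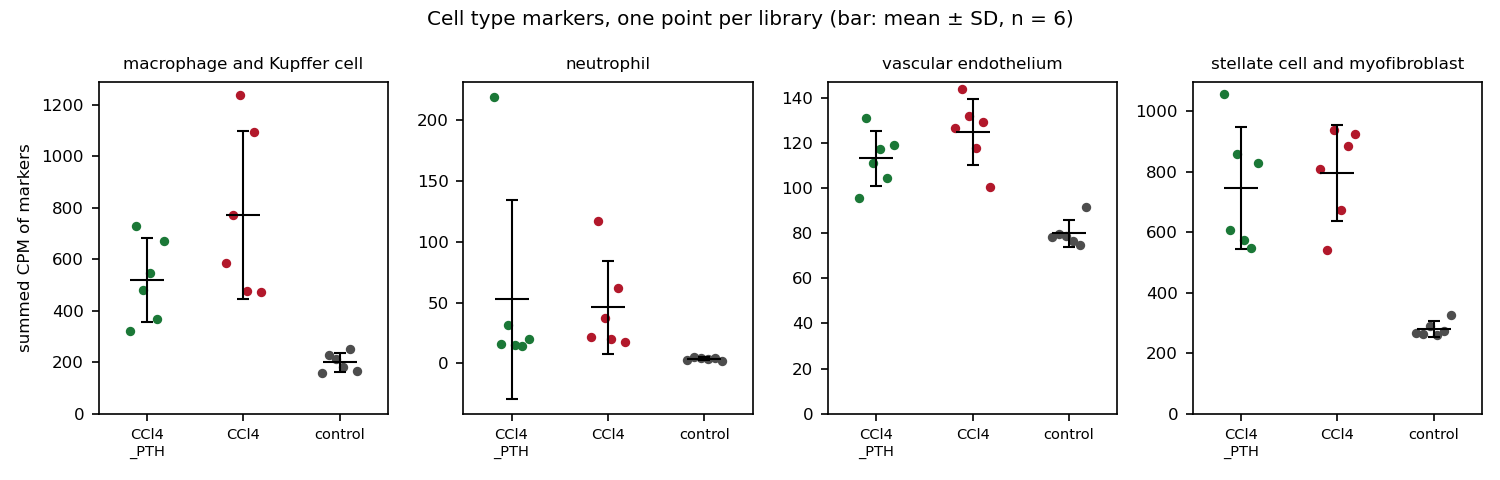
Summed CPM of the markers of macrophages and Kupffer cells, neutrophils, vascular endothelium, and stellate cells and myofibroblasts in every library, for CCl4_PTH, CCl4 and control livers. Points are libraries and bars are the mean ± SD of 6. All CCl4_PTH and CCl4 livers lie above the control livers in these 4 panels, and CCl4_PTH 1 holds 219 CPM of neutrophil markers.

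Clock genes moved as well, and several early response genes, Klf9, Klf10 and Per1 among them, are known to cycle over the day. Of 16 clock genes, output factors such as Tef included, 11 were lower and 2 higher in CCl4 against control livers, with a median log2 fold change of −1.05. Of all genes, 21.2% were lower and 26.3% higher there. In CCl4_PTH against CCl4 livers 7 clock genes were higher, with a median of 0.61 (9 higher and 1 lower without CCl4_PTH 1). In CCl4_PTH against control livers 1, Arntl, was higher, a call lost without CCl4_PTH 1, and 3 were lower. Of all genes, 7.1% were higher and 4.95% lower in the first of these comparisons, and 17.4% and 10.3% in the second. Bhlhe41 was lower in CCl4 against control livers at −2.17 ± 0.25 (SE, adjusted p = 1.51e-06) and Bhlhe40 at −1.13 ± 0.16 (adjusted p = 1.36e-05). Nr1d2, a repressor of the clock loop, was higher in CCl4_PTH against CCl4 livers at 0.81 ± 0.16 (adjusted p = 0.00427), and Tef, a clock output factor, at 1.0003 ± 0.22 (adjusted p = 0.00767). Tef, Bhlhe40 and Bhlhe41 have an annotated antisense neighbour. With the time of day unknown, the part of the clock in the levels of the 10 genes was not tested.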

How the data were processed

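Liver RNA was sequenced after removal of ribosomal RNA as 150-base pairs, per the labels' protocols. Bowtie2 2.5.1, HISAT2 2.2.1, StringTie 2.1.5, cutadapt 4.2, FastQC 0.11.9 and GRCm38 appear in the submitters' processing notes without a stated role. Sources used here do not name the counting tool, annotation or strand setting. The deposited table was taken as estimated counts per gene, from its values; they were already whole, so rounding changed none. Depth was 67.2 M to 118.9 M counts per library, and CPM covers counting and mouse-to-mouse spread together. GENCODE M21 matched 54723 of 54752 identifiers.

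All 3 comparisons came from one edgeR 4.0.16 quasi-likelihood fit (R 4.3.3, robust, TMM, filterByExpr with a minimum count of 10, 18 libraries, 3 groups), with Benjamini-Hochberg adjustment over 21840 genes and a threshold of 0.05. The SE was derived from F (log2 fold change over its square root), and 95% intervals are approximate. The test was tried on simulated data. Exact two-sided permutation tests (scipy 1.17.1) compared family shares. Levels per kilobase used the union of annotated exons. Library numbers are not stated to pair mice, and the main fit used no pairing. Same-numbered deviations correlated at −0.172 to −0.0809 in CCl4_PTH against CCl4 and at −0.0739 to 0.0103 in CCl4 against control. In CCl4_PTH against control they correlated at −0.0182 to 0.0655. So few values cannot exclude a pairing. No pair of libraries in a group agreed within sampling noise (lowest chi-square per gene 57.9 over 45 pairs).

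The 10 genes, the lists, the markers and the tests were chosen with earlier results of these data known. From each list the text names the 2 called genes with the smallest p in CCl4 against control and in CCl4_PTH against CCl4, at 1 CPM or more on average, and others named were chosen after their values were seen. Alternatives were other scalings and filters, DESeq2 1.42.0, limma 3.58.1 voom, a block term, fits on the 2 groups compared, and leaving out each library. The runs without CCl4_PTH 1 for the lists and for the order of levels, and the repeats of the shares, were added after seeing the data. Promoter windows came from RefSeq's GRCm38.p6 table, in which Egr1, Egr3, Ier2 and Myc were not found. The small RNA and circular RNA data of the study were not used here. The genes nearest to Egr3 across libraries are not reported here.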

Additional observations from a re-analysis of the deposited data

Results flagged for a closer look

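Within groups of 6 libraries, 72 values or sums were examined for a single liver far from the other 5 (a gap over range above 0.625), a check that chance passes in about 1 of 20 groups, and 9 were found. CCl4_PTH 1 accounts for 6 of them. Its Ier3 was 16.6 CPM, against 0.911 to 1.42 CPM in the other CCl4_PTH livers, and its Klf6 was 35.1 CPM, against 12.1 to 20.7 CPM. Its Ier2 share of Ier2, Ier3 and Ier5 was 24.0%, against 61.4% to 72.9%. Its neutrophil markers summed to 219 CPM, against 14.4 to 31.9 CPM, its cholangiocyte markers to 254 CPM, against 58.6 to 107 CPM, and its B cell markers to 2.93 CPM, against 7.02 to 8.62 CPM. The Ier2 share is computed from the Ier3 level among others, so its low value in CCl4_PTH 1 mostly restates the high Ier3. The relation between the other values was not tested.

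The Egr2 share of Egr1 to Egr3 was 23.7% in CCl4_PTH 2, against 10.1% to 13.5% in the other CCl4_PTH livers, and 15.6% in control 2, against 0% to 3.48% in the other control livers. Vascular endothelial markers summed to 91.3 CPM in control 8, against 74.6 to 79.4 CPM in the other control livers.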

How the results depend on the processing

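In CCl4 against control, 8 to 9 of the 10 genes were called in 9 other settings and 7 to 9 when 1 library was left out. In CCl4_PTH against control the counts were 4 to 8 and 5 to 6. In CCl4_PTH against CCl4, the count of 4 became 2 with library sizes only, 2 without a filter on low counts, 7 with voom and 2 to 6 when 1 library was left out. All genes called there numbered 2632, against 1098 with library sizes only, 4167 with voom and 1509 to 3854 when 1 library was left out. In CCl4_PTH against control 6051 became 9917 with library sizes only. With the replicate number as a block, which the design does not give as a pairing, edgeR called 0 of the 10 in CCl4_PTH against CCl4 (2 with unadjusted p under 0.05) and 84 genes in all, and 3343 genes in CCl4_PTH against control. Without the block, DESeq2 and voom called 5 and 7 of the 10 in CCl4_PTH against CCl4.

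Library sizes only moved the median of all genes to 0.63 (CCl4 against control), −0.13 (CCl4_PTH against CCl4) and 0.51 (CCl4_PTH against control), and the share of calls that were higher to 91.4%, 43.4% and 96.4%, against 55.3%, 58.9% and 62.8%. It turned Ier2 to 0.40 in CCl4 against control and 0.20 in CCl4_PTH against control, and Ier3 to −0.032 in CCl4_PTH against CCl4. In that comparison Ier3 was −1.31 with voom (adjusted p = 0.0118), −0.18 with the block and −1.57 to 0.31 when 1 library was left out, reversing without CCl4 1 and without CCl4_PTH 1. Klf2 was 0.0032 with the block and −0.20 to 0.056 when 1 library was left out (reversed without CCl4 2 and without CCl4 7), and Ier2 was −0.19 to 0.016 (reversed without CCl4_PTH 2). Myc in CCl4_PTH against control ran from −0.20 to 0.53, reversing without control 2, control 8 or CCl4_PTH 8. The cause was not tested, beyond what leaving out a library shows. Ier5 and Klf4 were called in CCl4_PTH against CCl4 in 12 of 12 such fits and lost the call with the block (adjusted p = 0.120 and 0.207). With a mean of at least 1 CPM, Egr3 was not tested. Low counts limit Egr3 and Egr2 in control livers.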
